A study of Homo sapiens with 14 samples.

Results

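The 43 genes described here encode fibronectin (FN1), other extracellular matrix proteins, integrins and genes that mark mesenchymal cells. They were taken by symbol from a table of 62703 genes and chosen by function, with earlier results of these data known. Shares of members set beside shares of all genes are therefore a description and not a test. All 43 were found in the table. Their messenger RNA was counted in 14 libraries from 3 human prostate cancer cell lines, with the question of how each line's matrix and adhesion genes stood before and after inhibition of the kinases CDK8 and CDK19. LNCaP cells carry the androgen receptor and are sensitive to enzalutamide, a drug that blocks it. 22Rv1 cells carry the receptor too and are resistant to the drug. PC3 cells lack the receptor. Each line was treated for 3 days with 1.5 µM SEL120-34A, an inhibitor of CDK8 and CDK19, or with its solvent DMSO. Each arm of LNCaP and of 22Rv1 had 3 libraries, and each arm of PC3 had 1. The study's methods name a poly-D-lysine coating of multiwell plates for LNCaP and for neither other line, so in comparisons between lines a coating and the line cannot be told apart. Each line is a single model grown alone, without stromal cells. The study's methods give 3 or more biological replicates as the general rule, with exceptions where noted. Nothing in the labels says that replicate libraries came from separate cultures, so p-values measure the spread between these libraries, which may be technical.

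The extracellular matrix is the protein network around cells. Fibronectin and collagens form fibrils in it, laminins build the basement membrane on which epithelial cells rest, and matricellular proteins such as thrombospondin 1 and the CCN proteins signal within it. Integrins are pairs of an alpha and a beta chain that bind these proteins and tie them to the actin cytoskeleton. Carcinoma cells that take on mesenchymal traits make fibronectin, vimentin and N-cadherin, under transcription factors such as ZEB1 and SNAI2. CDK8 and CDK19 are the alternative kinases of Mediator, the complex that links transcription factors to RNA polymerase II.

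Levels are given as CPM, read counts relative to library size after scaling with TMM factors. The libraries were made from the 3′ ends of transcripts, so counts are not scaled by length, and levels are compared between libraries and not between genes. The libraries held between 246063 and 909176 counts each. A floor of 3 counts corresponded to 3.27 CPM in the deepest and 12.9 CPM in the shallowest library, and values at or under it are read as not detectable at this depth. Intervals and floors cover counting error only. All treated 22Rv1 libraries (246063 to 368778 counts) were shallower than their controls (476455 to 777207). Mitochondrial genes took 13.9% to 17.3% of counts in LNCaP DMSO and 16.5% to 23.3% in LNCaP SEL120-34A libraries. In 22Rv1 the shares were 7.60% to 9.82% and 9.52% to 13.1%. Their part in the results was not tested, beyond a fit without the mitochondrial genes in which the same members passed the test in every comparison.

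The lines carried the markers of their labels. The summed level of 7 markers of luminal, androgen receptor-positive prostate cancer was 2949 to 3377 CPM in LNCaP DMSO, 564 to 745 CPM in 22Rv1 DMSO and 105 CPM in PC3 DMSO. With SEL120-34A it was 2358 to 2538 CPM in LNCaP, below all controls, 616 to 699.6 CPM in 22Rv1 and 82.4 CPM in PC3. In LNCaP, KLK3 (-1.82) and KLK2 (-1.37) fell and FOLH1 (0.47) rose on the log2 scale (adjusted p = 1.35e-11, 2.85e-08 and 0.0255, edgeR). In 22Rv1, TMPRSS2 rose by 1.89 (adjusted p = 0.0246, edgeR), the 1 marker called there. It had 2, 6 and 3 counts in 22Rv1 DMSO and 10, 7 and 4 in 22Rv1 SEL120-34A. The summed level of 9 markers of fibroblasts and smooth muscle was 18.3 to 28.8 CPM in LNCaP DMSO and 27.3 to 46.1 CPM in LNCaP SEL120-34A. It was 1.87 to 5.89 and 5.70 to 11.0 CPM in the 22Rv1 arms, and highest in PC3, at 101 CPM with DMSO and 89.4 CPM with SEL120-34A. In the LNCaP SEL120-34A libraries 6 of the 9 were at 0 counts, among them DCN, LUM and COL1A2. The others were COL1A1, ACTA2 and COL3A1. COL3A1, a fibrillar collagen, had 2, 0 and 0 counts in LNCaP DMSO and 4, 6 and 12 in LNCaP SEL120-34A, was picked after its values were seen and was too low for the test. The part of the luminal and stromal markers in the response of FN1 was not tested. Markers of endothelial and immune cells summed to no more than 12.3 and 7.01 CPM in any library.

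More of the 43 genes were detected in PC3 than in LNCaP or 22Rv1. In the PC3 DMSO library, the deepest at 909176 counts, 39 of them were above the floor. In LNCaP and 22Rv1 DMSO, 15 and 19 were above it in all 3 libraries, a stricter criterion than for 1 library. At or under the floor in every DMSO library were 17 members in LNCaP, 17 in 22Rv1 and 4 in PC3. The share of all genes above the floor was not counted. The number above the floor in every library was 14 in LNCaP SEL120-34A, 13 in 22Rv1 SEL120-34A and 37 in PC3 SEL120-34A, and it moves with depth. In all 12 LNCaP and 22Rv1 libraries 13 members had 3 or fewer counts. These were the collagens COL4A1 and COL5A1, the collagen cross-linkers LOX and LOXL2, the laminin chains LAMB1 and LAMB3, SPARC, TGFBI, MMP14, TIMP3, the receptor tyrosine kinase AXL, ZEB1 and SNAI2. Of these, COL5A1, TGFBI and ZEB1 had 0 counts throughout the 12 libraries.

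**Figure D1:**
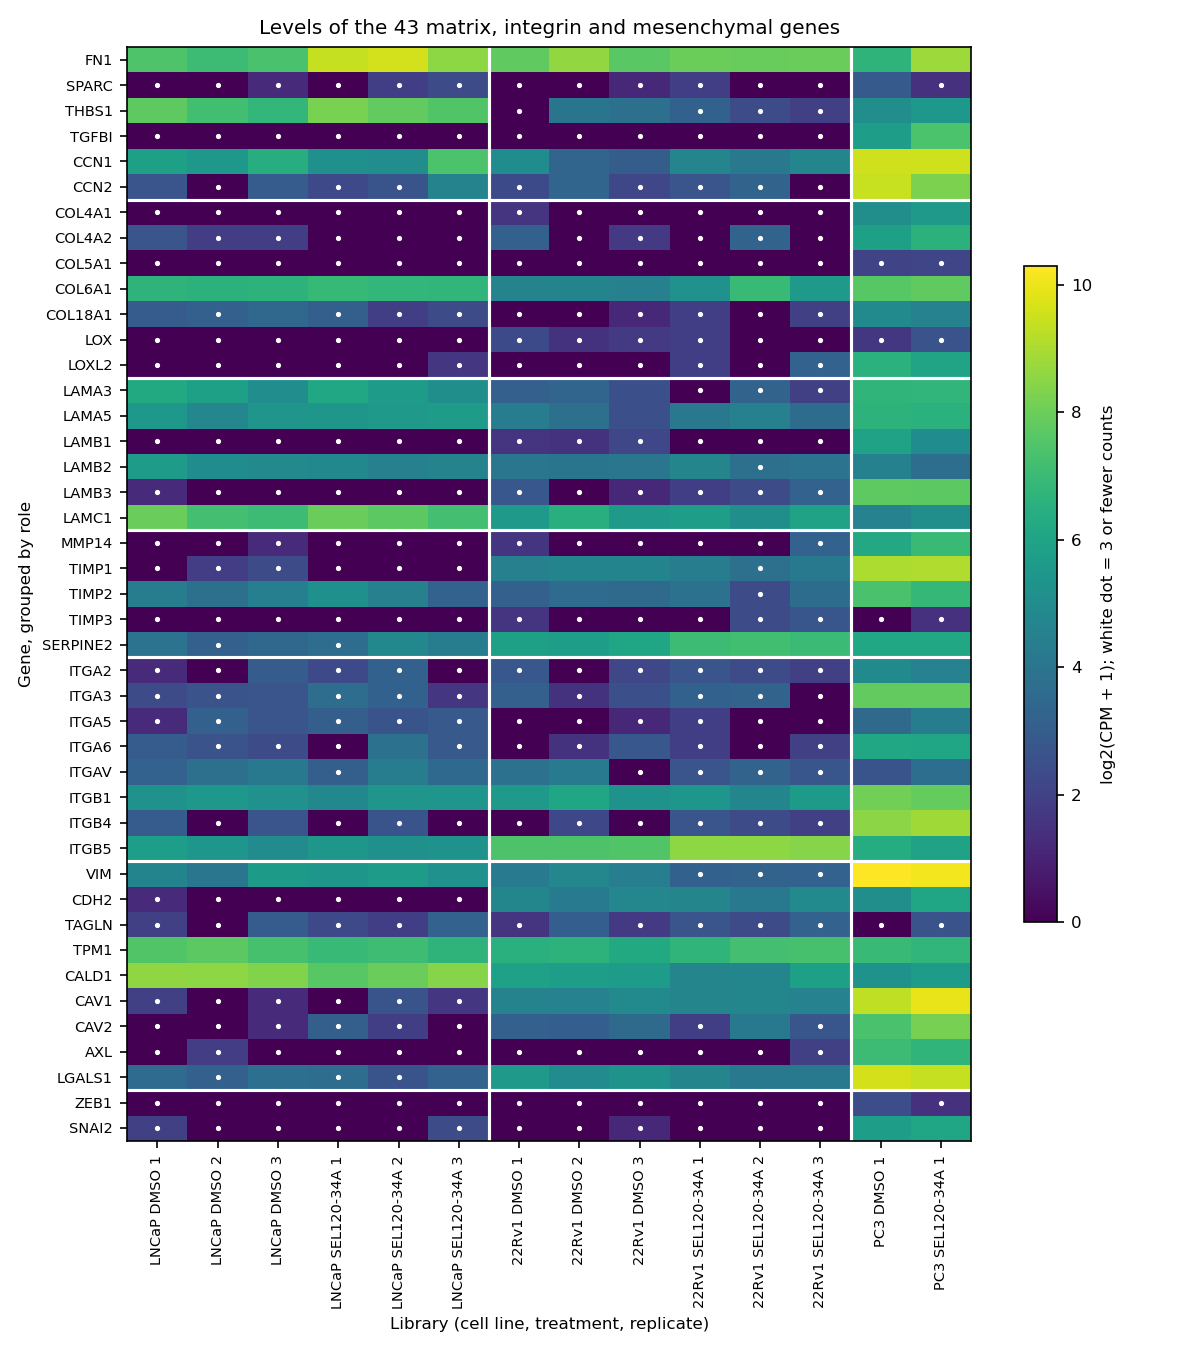
Level of each of the 43 genes (rows, grouped by role from matrix glycoproteins at the top to transcription factors at the bottom) in each of the 14 libraries (columns), as log2(CPM + 1) in color, with a white dot where a library held 3 or fewer counts. The LNCaP and 22Rv1 columns are dotted for most collagens, for LAMB1 and LAMB3 and for most integrin alpha chains, whereas 39 of the 43 rows are free of dots in the PC3 DMSO column.

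FN1 was the one member called in LNCaP. Fibronectin is a large glycoprotein that cells assemble into fibrils through integrins. Its gene (ENSG00000115414.21) lies on the minus strand of chromosome 2 at 215360440 to 215436073 in GRCh38, and no other annotated gene overlaps it. FN1 stood at 175, 131 and 159 CPM in the LNCaP DMSO libraries (124, 50 and 114 counts) and at 667, 783 and 372 CPM in the SEL120-34A libraries (171, 289 and 176 counts). All treated libraries were above all controls, and the lowest treated library, replicate 3, was still above the highest control. The log2 fold change was 1.96 ± 0.21 (SE, n = 3 libraries per arm), a 3.90-fold rise with a 95% interval of 1.54 to 2.38 on the log2 scale (adjusted p = 9.21e-09, edgeR's quasi-likelihood test). FN1 passed the test under each of the 24 alternative settings, at log2 fold changes of 1.71 to 2.25. In bulk libraries such as these, more cells expressing a gene and more RNA per cell cannot be told apart.

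In 22Rv1, FN1 did not pass the test. The DMSO libraries held 222, 397 and 202 CPM and the SEL120-34A libraries 254, 240.4 and 248 CPM. The treated values lay close together and inside the range of the controls. The log2 fold change was -0.11 ± 0.22, with a 95% interval of -0.55 to 0.33 (adjusted p = 0.845, edgeR). Without 22Rv1 DMSO replicate 2, the highest control, it was 0.25 (adjusted p = 0.615). The difference between the effects, LNCaP minus 22Rv1, was 2.07 ± 0.30 on the log2 scale (adjusted p = 5.07e-05, edgeR), and it held in 22 of 23 alternatives. The exception was limma-trend on the deposited log2 values (1.96, adjusted p = 0.108). Before treatment FN1 was lower in LNCaP than in 22Rv1, by -0.77 ± 0.21 on the log2 scale (adjusted p = 0.00239, edgeR), with no overlap between the groups. This call was lost without 22Rv1 DMSO replicate 2 (adjusted p = 0.0972) and in limma-trend on the deposited log2 values (adjusted p = 0.0592).

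In PC3 the FN1 count was 95 in the DMSO library and 252 in the SEL120-34A library, or 103 and 442 CPM. The ratio was 4.27 with a 95% counting interval of 3.36 to 5.47, and with 1 library per arm there is no test of the condition. FN1 was the member with the largest PC3 ratio. PC3 DMSO held less FN1 than any of the 6 LNCaP and 22Rv1 DMSO libraries (131 to 397 CPM), with a counting interval of 83.7 to 126 CPM.

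**Figure D2:**
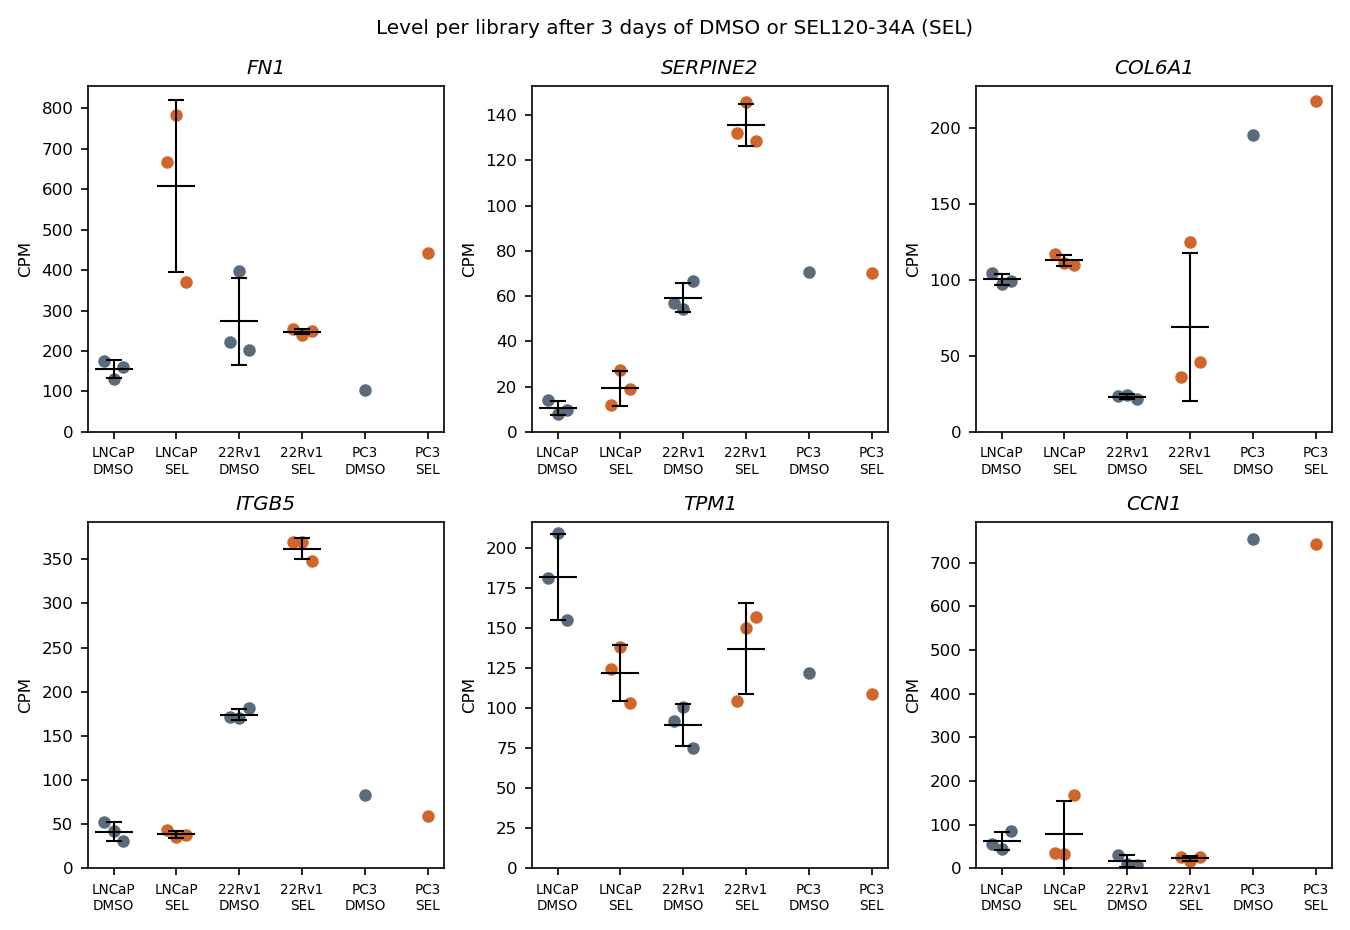
CPM per library for FN1, SERPINE2, COL6A1, ITGB5, TPM1 and CCN1, with 1 point per library (grey for DMSO, orange for SEL120-34A) and black bars for the mean and SD of the 3 libraries of an arm; PC3 has 1 library per arm and no bar. FN1 moves up in LNCaP and is near 250 CPM in all treated 22Rv1 libraries, while ITGB5 and SERPINE2 separate the arms of 22Rv1 and a single library, SEL120-34A replicate 3, stands at 167 CPM for CCN1 in LNCaP.

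Sequences before an annotated start of FN1 and TPM1 are shown because these were the members whose response differed between the lines. The gene model of TPM1 begins further upstream, at 63042620, so its window lies inside the gene and not at its 5′ end. Each gene has 1 start in the RefSeq table used. The lines below give the 250 bases before that start in GRCh38.p14, 5′ to 3′ on the strand of the gene (FN1 chr2:215436069-215436318, minus strand; TPM1 chr15:63048239-63048488, plus strand). Capitals mark a cyclic AMP response element (CRE, TGACGTCA, bound by the CREB and ATF factors) and a CCAAT box (CCAAT, bound by NF-Y), searched on both strands.
FN1: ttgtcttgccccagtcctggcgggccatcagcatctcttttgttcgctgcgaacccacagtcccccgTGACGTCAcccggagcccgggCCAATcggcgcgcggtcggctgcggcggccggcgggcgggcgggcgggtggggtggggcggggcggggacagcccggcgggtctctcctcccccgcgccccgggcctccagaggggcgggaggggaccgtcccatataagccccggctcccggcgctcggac
TPM1: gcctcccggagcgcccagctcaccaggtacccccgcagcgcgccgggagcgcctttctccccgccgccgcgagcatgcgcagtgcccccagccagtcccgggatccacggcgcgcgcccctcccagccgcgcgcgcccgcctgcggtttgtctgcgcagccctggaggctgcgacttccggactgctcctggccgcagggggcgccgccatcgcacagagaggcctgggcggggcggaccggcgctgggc

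The FN1 window holds a CRE that begins 183 bases and a CCAAT box that begins 162 bases before the start. Over windows of 300 bases, from 250 before to 50 after a start, 34 of the 43 members had an entry, with 60 windows between them. A CRE was found in 1 of the 60, that of FN1 (1.67%), and in 1.85% of the 35116 windows of all genes. A CCAAT box was found in 15 of the 60 (25%) and in 34.6% of all windows. The AP-1 motif TGANTCA was found in 5 of the 60 (8.33%) and in 7.71% of all windows, the TEAD motif GGAATG in 9 (15%) and in 14% of all windows, and the CArG box in 0 and in 1.29%. The window of TPM1, which lies inside the gene, held none of these motifs. That says only that the letters are absent from it, and nothing on the 5′ end of the gene. GC content was 76.7% in the FN1 and 78.3% in the TPM1 window, against a median of 58.7% over all windows. No binding was measured in these samples.

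Of the 43 members, 17 passed the low-count filter of the test and 1 of them (FN1) was called in LNCaP, where 2.77% of the 7086 genes tested were called (1.99% higher and 0.776% lower). In 22Rv1, 3 of the 17 were called, all higher, where 5.7% of all genes tested were called (4.15% higher and 1.55% lower). The 3 were ITGB5, SERPINE2 and COL6A1. Leaving out the members at the floor in an arm, the log2 fold changes of 15 members in LNCaP ran from -0.60 to 1.96 with a median of 0.16, and those of 14 members in 22Rv1 ran from -0.91 to 1.46 with a median of 0.13. The median of all genes tested was 0.00 in both lines. The fitted change was positive for 8 of the 15 and for 8 of the 14, and most did not pass the test. At an unadjusted p under 0.05 there were 5 of the 17 members in LNCaP, where 956 of the 7086 genes tested (13.5%) were, and 6 in 22Rv1, where 1351 (19.1%) were.

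**Figure D3:**
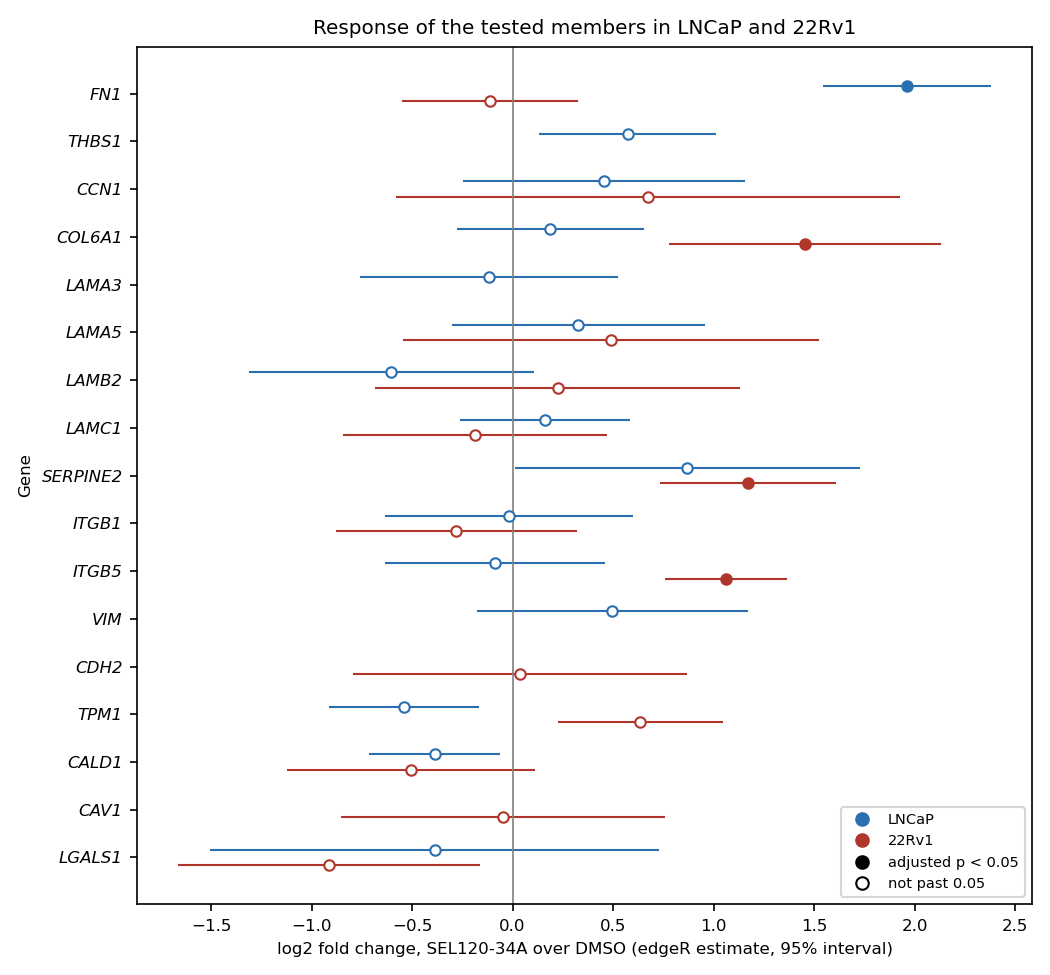
Log2 fold change of SEL120-34A over DMSO (x axis) for the tested members (rows) in LNCaP (blue) and 22Rv1 (red), with 95% intervals from edgeR and filled points where the adjusted p is under 0.05; a line is left out where an arm had 3 or fewer counts in every library. FN1 is the filled point of LNCaP, at 1.96, and COL6A1, SERPINE2 and ITGB5 are the filled points of 22Rv1, at 1.46, 1.17 and 1.06, while TPM1 has its LNCaP and 22Rv1 points on opposite sides of 0.

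ITGB5 encodes the integrin beta 5 chain, which pairs with alpha V to bind vitronectin. It lies on the minus strand of chromosome 3 at 124761948 to 124901418, and its antisense gene ITGB5-AS1 had 0 counts in all libraries. In 22Rv1 it stood at 171, 170.3 and 181 CPM with DMSO and at 369, 369 and 348 CPM with SEL120-34A. The arms did not overlap, and the libraries within each arm were close. SEL120-34A changed it by 1.06 ± 0.15 on the log2 scale (adjusted p = 3.97e-06, edgeR), a 2.09-fold rise that passed the test in all 24 alternatives. In LNCaP the levels were 52.1, 41.9 and 30.8 CPM with DMSO and 42.9, 35.2 and 38.0 CPM with SEL120-34A. These overlapped, at a log2 fold change of -0.09 with a 95% interval of -0.63 to 0.46 (adjusted p = 0.938). The difference between the effects was -1.15 and did not pass the test (adjusted p = 0.0674). It passed only without LNCaP DMSO replicate 3 (adjusted p = 0.0465). The partner chain ITGAV was too low for the test, with 12 or fewer counts in every library.

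Of the 8 integrin chains among the members, ITGB1 and ITGB5 were tested. ITGB1 encodes the beta 1 chain shared by most matrix-binding integrins. It had log2 fold changes of -0.02 (-0.64 to 0.60) in LNCaP and -0.28 (-0.88 to 0.32) in 22Rv1, neither past the test. The chains ITGA2, ITGA3, ITGA5, ITGA6 and ITGB4 had 5 or fewer counts in each of the 12 libraries, so their response could not be measured there.

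SERPINE2, also called protease nexin 1, is a secreted inhibitor of thrombin, urokinase and plasmin (chromosome 2, 223975045 to 224039318, minus strand). In 22Rv1 it stood at 56.9, 54.3 and 66.8 CPM with DMSO and at 132, 146 and 128 CPM with SEL120-34A. The treated libraries were all above the controls. On the log2 scale the rise was 1.17 ± 0.22 (adjusted p = 3.75e-04, edgeR), or 2.26-fold, and it passed the test in all 22 alternatives that gave it an adjusted p. In LNCaP it was near the floor, at 14.1, 7.85 and 9.79 CPM with DMSO and 11.7, 27.1 and 19.0 CPM with SEL120-34A, on 3 to 10 counts per library. The log2 fold change there was 0.87 with a 95% interval of 0.01 to 1.73 (adjusted p = 0.363), and the difference between the effects was -0.30 (-1.32 to 0.71, adjusted p = 0.876), so a difference between the lines was not detectable. The PC3 libraries held 70.8 and 70.1 CPM.

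COL6A1 encodes the alpha 1 chain of collagen VI, which forms beaded microfibrils near the cell surface (chromosome 21, 45981770 to 46005050, plus strand). In 22Rv1 it stood at 23.6, 24.3 and 21.5 CPM with DMSO and at 35.8, 124 and 45.6 CPM with SEL120-34A. The arms did not overlap, but replicate 2 was far above the other two treated libraries. The log2 fold change was 1.46 ± 0.33 (adjusted p = 0.00474, edgeR). Without 22Rv1 SEL120-34A replicate 2, the shallowest library, it was 0.83 and the call was lost (adjusted p = 0.217), and limma-trend on the deposited log2 values did not call it either (adjusted p = 0.0834). In LNCaP it stood at 104, 96.9 and 99.3 CPM with DMSO and 117, 111 and 109.8 CPM with SEL120-34A. These did not overlap but differed by only 0.19 on the log2 scale (adjusted p = 0.792). The difference between the effects was -1.27 ± 0.40 (adjusted p = 0.164).

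Besides FN1, the difference between the lines was called for TPM1, making 2 of 17 members where 0.734% of all genes tested were called (0.268% with the higher value in LNCaP, as FN1, and 0.466% with the lower, as TPM1). TPM1 encodes tropomyosin alpha-1, which lies along actin filaments (chromosome 15, 63042620 to 63071915, plus strand). In LNCaP it stood at 182, 209 and 155 CPM with DMSO and at 125, 138 and 104 CPM with SEL120-34A. In 22Rv1 it stood at 92.3, 101 and 75.1 CPM with DMSO and at 105, 150.2 and 157 CPM with SEL120-34A. Treated libraries were all below the controls in LNCaP and all above them in 22Rv1. Neither effect passed the test on its own, at -0.54 ± 0.19 in LNCaP (adjusted p = 0.126) and 0.64 ± 0.20 in 22Rv1 (adjusted p = 0.0539, edgeR). The difference was -1.17 ± 0.27 on the log2 scale (adjusted p = 0.0274). That call was lost in 10 of 23 alternatives, at adjusted p-values up to 0.143, and among these were the fits without LNCaP DMSO replicates 1 and 2, LNCaP SEL120-34A replicates 1 and 3, 22Rv1 DMSO replicate 3 and 22Rv1 SEL120-34A replicates 2 and 3. The antisense gene TPM1-AS had 4 counts in the 14 libraries, against 918 for TPM1.

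Without regard to the test, the arms of LNCaP were separate, with no overlap between libraries, for 4 of the 17 members and for 19.4% of all genes. FN1 and COL6A1 were higher (8.76% of all genes were) and LAMB2 and TPM1 lower (10.7%). In 22Rv1 the arms were separate for 6 members and for 23.0% of all genes. SERPINE2, COL6A1, ITGB5 and TPM1 were higher (12.4% of all genes) and VIM and LGALS1 lower (10.5%). LGALS1 encodes galectin-1, a secreted lectin that binds glycans of matrix proteins and integrins. It had a log2 fold change of -0.91 in 22Rv1 (adjusted p = 0.150, edgeR).

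The results of THBS1, CALD1 and CCN1 in LNCaP changed when single libraries were left out. THBS1 (thrombospondin 1) stood at 214, 144 and 112 CPM with DMSO and at 300.2, 228 and 179 CPM with SEL120-34A, a log2 fold change of 0.57 that did not pass the test (adjusted p = 0.188, edgeR). It was called without LNCaP DMSO replicate 1 (0.90, adjusted p = 0.0341) and without LNCaP SEL120-34A replicate 3 (0.77, adjusted p = 0.0496). CALD1 (caldesmon, an actin-binding protein) stood at 387, 377 and 326 CPM with DMSO and at 199, 249 and 346 CPM with SEL120-34A. Its log2 fold change of -0.39 (adjusted p = 0.247) was -0.63 without SEL120-34A replicate 3 and was then called (adjusted p = 0.0340).

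CCN1 and CCN2 are matricellular proteins whose genes are common readouts of YAP and TEAD activity. In LNCaP, CCN1 stood at 56.3, 44.5 and 85.3 CPM with DMSO and at 35.1, 32.5 and 167 CPM with SEL120-34A. SEL120-34A replicate 3 was above every control, and both other treated libraries were below every control. The log2 fold change of 0.46 (adjusted p = 0.618) became -0.88 without replicate 3 (adjusted p = 0.251). For CCN2 the same library held 11 counts where the other treated libraries held 1 and 2. This library had the lowest mitochondrial share of the treated LNCaP libraries (16.5%, against 20.8% and 23.3%) and the lowest FN1.

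The laminin chains are parts of heterotrimers with 1 alpha, 1 beta and 1 gamma chain. LAMA3, LAMA5, LAMB2 and LAMC1 were tested, and none passed the test with SEL120-34A in either line. Their log2 fold changes in LNCaP were -0.12, 0.33, -0.60 and 0.16. LAMA3 had 3 or fewer counts in every treated 22Rv1 library, so no fitted change is given for it there, and LAMA5, LAMB2 and LAMC1 were at 0.49, 0.23 and -0.19.

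VIM, CDH2, ZEB1 and SNAI2 are the classical mesenchymal markers. VIM encodes vimentin, an intermediate filament. In LNCaP it stood at 23.9, 15.7 and 47.5 CPM with DMSO and at 42.9, 51.5 and 35.9 CPM with SEL120-34A, and the arms overlapped (log2 fold change 0.50, adjusted p = 0.553, edgeR). In 22Rv1 it stood at 17.7, 26.2 and 20.3 CPM with DMSO, and the treated libraries held 3, 2 and 3 counts, at the floor. The pooled counts of 40 and 8 gave a ratio of 0.398 with a counting interval of 0.161 to 0.861, and the test did not call it (adjusted p = 0.162). PC3 held 1262 CPM with DMSO and 1110 CPM with SEL120-34A, a ratio of 0.880 (0.797 to 0.970).

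CDH2 encodes N-cadherin. It had 1 count in all 6 LNCaP libraries together. In 22Rv1 it had 13, 10 and 22 counts with DMSO and 9, 4 and 10 with SEL120-34A, at 25.5, 18.7 and 26.2 CPM against 24.8, 17.2 and 28.5 CPM. The arms overlapped, with a log2 fold change of 0.04 and a 95% interval of -0.79 to 0.87 (adjusted p = 0.978, edgeR). ZEB1, a zinc-finger repressor of epithelial genes, had 0 counts in all 12 libraries and 4 and 1 counts in PC3. SNAI2 (Slug) had 2 or fewer counts in each of the 12 libraries and 49 and 38 counts in PC3, a ratio of 1.25 (0.796 to 1.95). No response of ZEB1 or SNAI2 could be measured in LNCaP or 22Rv1.

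Between the untreated LNCaP and 22Rv1 libraries, 15 of the 17 tested members differed, 9 higher in LNCaP and 6 lower. Of all genes tested 49.0% differed, 24.0% higher and 25.0% lower in LNCaP, and a member whose level was high in 1 line only could pass the low-count filter through that line, so the count is no measure of the group. LNCaP was higher for thrombospondin, laminin chains and actin regulators, and 22Rv1 was higher for N-cadherin, caveolin 1, SERPINE2, ITGB5, galectin-1 and FN1. VIM (0.54, adjusted p = 0.190) and ITGB1 (-0.35, adjusted p = 0.274) were the tested members not called.

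The 5 largest folds in favor of LNCaP were those of THBS1, LAMA3, CALD1, CCN1 and COL6A1. THBS1 stood at 214, 144 and 112 CPM in LNCaP DMSO, while the 22Rv1 DMSO libraries held 0, 8 and 11 counts, a log2 difference of 3.94 ± 0.34 (adjusted p = 6.77e-13, edgeR). LAMA3, a chain of the laminin in hemidesmosomes, stood at 74.7, 57.6 and 32.2 CPM in LNCaP and 7.85, 9.36 and 4.77 CPM in 22Rv1 (2.93 ± 0.41, adjusted p = 1.65e-07). CALD1 stood at 387, 377 and 326 CPM against 58.9, 52.4 and 48.9 CPM (2.78 ± 0.19, adjusted p = 9.02e-16). None of these ranges overlapped. The untreated lines were separate for 9 members in favor of LNCaP and 6 in favor of 22Rv1, against 56.4% of all genes (27.5% and 28.9%). CCN1 stood at 56.3, 44.5 and 85.3 CPM against 31.4, 9.36 and 7.16 CPM (2.13 ± 0.44, adjusted p = 1.07e-04), and COL6A1 at 104, 96.9 and 99.3 CPM against 23.6, 24.3 and 21.5 CPM (2.12 ± 0.27, adjusted p = 2.46e-08). These too did not overlap. The other members higher in LNCaP were LAMA5, LAMC1, LAMB2 and TPM1, at log2 differences of 1.74, 1.62, 1.25 and 1.03.

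The 5 largest folds in favor of 22Rv1 were those of CDH2, CAV1, SERPINE2, ITGB5 and LGALS1. For CDH2 the libraries held 1, 0 and 0 counts in LNCaP DMSO and 13, 10 and 22 in 22Rv1 DMSO, a ratio of pooled counts of 43.2 with a wide counting interval of 7.37 to 1744 (adjusted p = 5.70e-07, edgeR). CAV1 encodes caveolin 1, the coat protein of caveolae. The LNCaP libraries held 2, 0 and 1 counts and the 22Rv1 libraries 12, 12 and 24, a ratio of pooled counts of 15.4 (4.95 to 77.1, adjusted p = 1.40e-06). SERPINE2 stood at 14.1, 7.85 and 9.79 CPM in LNCaP and 56.9, 54.3 and 66.8 CPM in 22Rv1 (-2.41 ± 0.31, adjusted p = 1.60e-08). ITGB5 stood at 52.1, 41.9 and 30.8 against 171, 170.3 and 181 CPM (-2.06 ± 0.19, adjusted p = 3.89e-12), and LGALS1 at 11.3, 7.85 and 12.6 against 47.1, 29.9 and 38.2 CPM (-1.77 ± 0.36, adjusted p = 7.03e-05). The ranges of the 3 genes did not overlap.

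In PC3 the untreated level was at least 2-fold above each of the 6 LNCaP and 22Rv1 DMSO libraries for 24 of the 37 members with 10 or more counts in some untreated library. Of all 10672 genes at that level, 11.9% were so. No member was 2-fold below all 6, against 6.33% of all genes. With 1 PC3 library these counts compare libraries, and a gene high in PC3 alone could enter through PC3. Parts of hemidesmosomes were among them. ITGB4, which pairs with alpha 6 to bind laminin there, stood at 363 CPM in PC3 DMSO and at most at 7.04 CPM in the others. LAMB3 stood at 213 CPM against at most 5.89 CPM, and ITGA6 at 69.7 CPM against at most 7.04 CPM. LAMA3, the partner of LAMB3 in that laminin, was not among them, at 107 CPM against up to 74.7 CPM. Of the mesenchymal genes, VIM, CAV1, CAV2, AXL, LGALS1 and SNAI2 were in this group, with AXL at 132 CPM against at most 2.62 CPM. CDH2 (32.7 CPM against up to 26.2 CPM) and TPM1 (122 CPM against up to 209 CPM) were not, and TAGLN, a smooth muscle actin-binding protein, had 0 counts in PC3 DMSO. THBS1, LAMC1 and CALD1 were not, and PC3 held less of each (32.7, 22.9 and 38.1 CPM) than any LNCaP DMSO library.

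**Figure D4:**
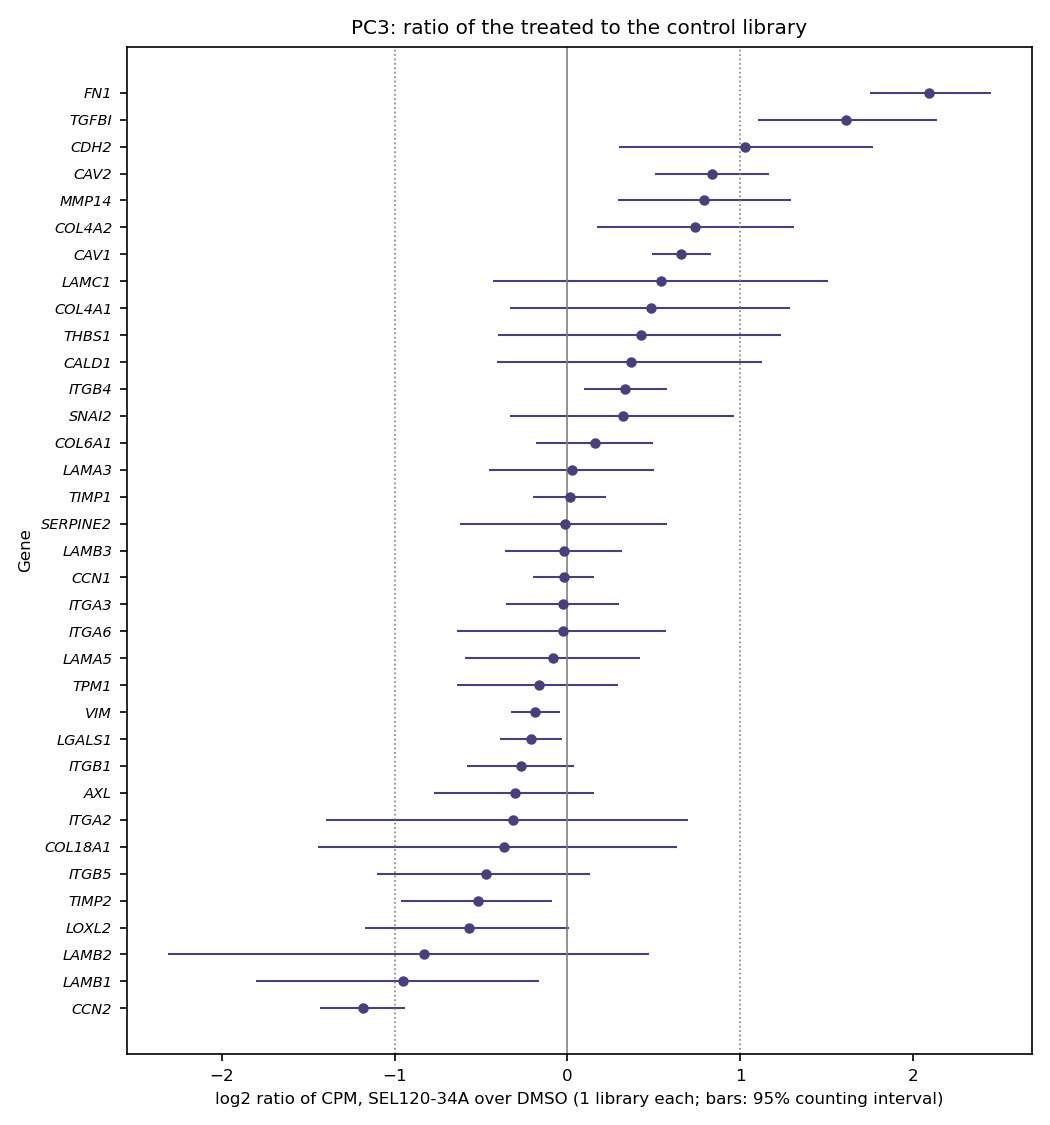
Log2 ratio of CPM in the SEL120-34A library to the DMSO library of PC3 (x axis) for the 35 members with 20 or more counts in either (rows, ordered by ratio), with bars for the 95% counting interval and dotted lines at ratios of 2 and 0.5. FN1 and TGFBI lie above the upper dotted line with their whole intervals, CDH2 straddles it, and CCN2 is the one point under the lower line.

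Between the PC3 libraries the ratio of SEL120-34A to DMSO was 2 or more for 3 of these 35 members, where 1.52% of 6495 genes reached it, and 0.5 or less for 1 member, against 3.63% of genes. TGFBI, a matrix protein induced by TGF-beta that binds integrins and collagens, had 50 and 95 counts (54.4 and 167 CPM), a ratio of 3.06 with a counting interval of 2.15 to 4.40. It had no count in the other lines. CDH2 had 30 and 38 counts, at 32.7 and 66.6 CPM, a ratio of 2.04 (1.23 to 3.41). CCN2 was the member with the lowest ratio, at 639 and 175 counts (696 and 307 CPM), or 0.441 (0.371 to 0.522). Its paralog CCN1 was at 754 and 743 CPM, a ratio of 0.985 (0.871 to 1.11), so the CCN genes did not move alike between these libraries. LAMB1 had a ratio of 0.518 (0.286 to 0.894) and LAMB2 of 0.564 (0.201 to 1.39), on 56 and 18 and on 20 and 7 counts. The ratios of CAV1 and CAV2, which together coat caveolae, were 1.58 (1.41 to 1.78) and 1.78 (1.42 to 2.24). ITGB5, SERPINE2 and COL6A1, the genes called in 22Rv1, had PC3 ratios of 0.721 (0.466 to 1.09), 0.991 (0.651 to 1.49) and 1.12 (0.880 to 1.41). TPM1 had a ratio of 0.892 (0.643 to 1.23).

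Other genes of the same pathways were taken from 8 lists of 129 genes in all, of which 61 were tested. They covered TGF-beta and YAP/TEAD signalling, focal adhesion, other integrin chains, collagen processing, basement membrane and matrix receptors, proteases, epithelial identity and mesenchymal transcription factors. With SEL120-34A, 1 rose and 1 fell in LNCaP, and 3 rose and 1 fell in 22Rv1. These are 3.28% and 6.56% of the 61, near the 2.77% and 5.7% of all genes tested. None of the 12 other integrin chains was high enough to be tested. In LNCaP, SMAD7, an inhibitor of TGF-beta signalling, had 2 counts in each DMSO library and 5, 6 and 6 in the SEL120-34A libraries, a pooled ratio of 4.66 with a counting interval of 1.75 to 14.4 (adjusted p = 0.0374, edgeR). KRT18, a keratin of simple epithelia, fell from 684 to 788 CPM to 480 to 551 CPM (-0.46 ± 0.13, adjusted p = 0.0374). Each of these calls was lost without any of LNCaP DMSO replicates 1, 2 and 3 or SEL120-34A replicates 1 and 2, at adjusted p-values up to 0.174 for SMAD7 and 0.221 for KRT18.

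In 22Rv1, the actin cross-linker FLNA rose from 59.9 to 72.6 CPM to 103 to 116 CPM (0.75 ± 0.22, adjusted p = 0.0370, edgeR). SDC2, a cell-surface proteoglycan, rose from 26.2 to 31.8 CPM to 38.6 to 82.7 CPM (1.08 ± 0.33, adjusted p = 0.0402). The call of FLNA was lost in 12 of 24 alternatives (adjusted p up to 0.164) and that of SDC2 in 11 of 22 (up to 0.363), and both were lost without any of 22Rv1 DMSO replicates 2 and 3, 22Rv1 SEL120-34A replicates 1 and 3 or LNCaP DMSO replicate 3, FLNA also without 22Rv1 SEL120-34A replicate 2 and SDC2 also without 22Rv1 DMSO replicate 1. The tight junction genes CLDN4 and CLDN7 moved in opposite directions there. CLDN4 rose from 221 to 338 CPM to 479 to 914 CPM (1.34 ± 0.22, adjusted p = 4.34e-05), and CLDN7 fell from 348 to 440 CPM to 237 to 313 CPM (-0.58 ± 0.14, adjusted p = 0.00976). The CLDN4 call was lost in limma-trend on the deposited log2 values (adjusted p = 0.0658), and the CLDN7 call without 22Rv1 DMSO replicate 3 or SEL120-34A replicate 1 and with counts thinned to the smallest total (adjusted p up to 0.111). The effect on CLDN4 differed between the lines (-1.39 ± 0.30, adjusted p = 0.0129), and it was the one gene of the lists for which the difference was called. That call was lost in 8 of 23 alternatives, among them those without LNCaP DMSO replicate 3, LNCaP SEL120-34A replicates 1 and 2 or 22Rv1 SEL120-34A replicate 2 (adjusted p up to 0.274). The summed level of the 16 epithelial genes was 3016 to 3181 CPM in LNCaP DMSO and 2488 to 2889 CPM in LNCaP SEL120-34A, and 1877 to 2268 and 2125 to 2773 CPM in the arms of 22Rv1.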

How the data were processed

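The 3′ ends of transcripts of 14 samples were sequenced from pooled, barcoded BRB-seq libraries. Per the labels and the methods of the study, the authors aligned and counted reads with STARsolo on GRCh38.p13 (GENCODE release 43). The deposited counts are raw and cover 62703 genes. Collapsing of molecular identifiers is not given in the sources used here. The deposited log2 values of 9638 genes were matched by edgeR's filter, TMM factors and a prior count of 2 applied to the counts. They hold 36 of the 43 members and were used for an alternative only.

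Counts of the 12 LNCaP and 22Rv1 libraries were fitted in 1 model with a mean per group in edgeR 4.0.16 (R 4.3.3), with TMM factors, the low-count filter (7086 genes, 17 members) and the quasi-likelihood F-test at 8 residual degrees of freedom. The common biological coefficient of variation was 11.1%. P-values were adjusted by Benjamini-Hochberg over all genes tested, and the threshold was 0.05. The effect of SEL120-34A was tested within each line and between lines, and LNCaP was compared with 22Rv1 under DMSO. CPM were scaled with TMM factors over all 14 libraries. Where an arm had 3 or fewer counts in every library, the ratio of pooled counts with its 95% exact binomial interval stands in place of the fitted change, and PC3 intervals were made likewise from its libraries. On simulated counts of 6776 genes, 79.9% (LNCaP) and 81.6% (22Rv1) of changed genes were recovered. Of the calls in each line, 6.06% were of genes not changed. These shares hold only for changes of the size simulated and do not give the recovery of smaller ones. A member that did not pass the test is therefore not shown to be unchanged.

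Values in every library are given for members called with SEL120-34A or in the difference, for the 5 largest baseline folds and the 3 largest PC3 ratios in each direction, and for VIM, CDH2, ZEB1 and SNAI2, and called genes of other lists are named. THBS1, CALD1, CCN1, LGALS1, COL3A1 and further members outside that rule were chosen after their values were seen. The members and lists were chosen with earlier results of these data known. Coordinates are from GENCODE release 44, where 42 of 43 identifiers had the same version, and promoters from RefSeq (GRCh38.p14). DESeq2 1.42.0 and limma 3.58.1 served as alternatives.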

Additional observations from a re-analysis of the deposited data

Results flagged for a closer look

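Among the 17 members and the 61 genes of the other lists that were tested, the effect of SEL120-34A differed between LNCaP and 22Rv1 for 3 by the interaction test of edgeR (n = 3 libraries per arm). Of all 7086 genes tested, 52 differed. FN1 had a difference of 2.07 on the log2 scale (adjusted p = 5.07e-05), with all treated libraries above all controls in LNCaP and inside the range of the controls in 22Rv1. TPM1 had a difference of -1.17 (adjusted p = 0.0274), with treated libraries below all controls in LNCaP and above all controls in 22Rv1. Neither effect on TPM1 passed the test within its line. CLDN4, a claudin and no member of the 43, had a difference of -1.39 (adjusted p = 0.0129), and rose in 22Rv1. Of 23 alternatives, the call was lost in 1 for FN1, 10 for TPM1 and 8 for CLDN4. The causes of these differences were not tested.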

How the results depend on the processing

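Up to 24 alternatives were run (23 between the lines). Members called in LNCaP numbered 1 in the fit reported and 1 to 3 with single libraries left out. In 22Rv1 they numbered 3, and 2 to 4. For the difference they numbered 2, and 1 to 3, with 1 under at least 10 counts in every library, 1 under thinning to the smallest total and 0 in limma-trend on the deposited values. At baseline they numbered 15, with 4 under the filter of 10 counts. Only FN1, COL6A1, ITGB5 and TPM1 reached 10 counts in every library, and these were the 4 called. The other members were not tested under that filter.

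All genes called in LNCaP numbered 196, and 87 to 239 with libraries left out (lowest without SEL120-34A replicate 2), 122 under the filter of 10 counts, 101 in DESeq2, 41 in limma-trend (114 on the tested genes only) and 99 after thinning. In 22Rv1 they numbered 404, and 155 to 455 with libraries left out (lowest without SEL120-34A replicate 2), 260 without a filter, 255 in DESeq2 and 201 in limma-trend. For the difference they numbered 52, and 20 to 61, with 29 under the filter of 10 counts, 29 after thinning and 5 in limma-trend. At baseline they numbered 3473, with 1503 under the filter and 2086 after thinning.

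Of the other lists, 2 genes were called in LNCaP, and 0 to 3 with libraries left out. There was 1 without a filter, with 10 counts, with each line alone or after thinning, and 0 in DESeq2 or limma-trend. In 22Rv1 there were 4, and 1 to 4, with 2 in the fits without a filter, with 10 counts, by DESeq2 or by limma-trend and 1 after thinning. The 1 call of the difference became 0 with 10 counts, in DESeq2 and in both limma-trend fits, and 0 to 1 with libraries left out. At baseline 34 became 12 with 10 counts and 17 after thinning.

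Log2 fold changes that reversed belonged to members that did not pass the test there. With libraries left out, CCN1 in LNCaP ran from -0.885 (without SEL120-34A replicate 3) to 0.848, ITGB5 in LNCaP from -0.295 to 0.157, CDH2 in 22Rv1 from -0.114 to 0.171, FN1 in 22Rv1 from -0.309 to 0.249 (without DMSO replicate 2) and VIM at baseline from -0.054 (without LNCaP DMSO replicate 3) to 0.744. CCN1 in LNCaP was -0.0338 in both limma-trend fits. ITGB5 in LNCaP was 0.311 after thinning. CDH2 in 22Rv1 was -0.106 with library totals, -0.0259 without a filter and -0.0109 in both limma-trend fits. The cause was not tested.

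Whether replicate numbers pair the samples is not known. Deviations of same-numbered libraries correlated at -0.05 to 0.12, but counting error lowers such correlations, so they cannot show that pairing is absent. In LNCaP the mitochondrial share fell from replicate 1 to 3 in both arms (17.3%, 15.7% and 13.9%, then 23.3%, 20.8% and 16.5%). In 22Rv1 it did so with DMSO (9.82%, 8.30% and 7.60%) but not with SEL120-34A (11.5%, 13.1% and 9.52%). With the replicate number as a block, 2 members were called in LNCaP (FN1, and THBS1 at adjusted p = 0.0363) and TPM1 passed in 22Rv1 (adjusted p = 0.0315).

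Library totals without TMM shifted the median of all genes by -0.14 in 22Rv1, -0.08 in LNCaP and -0.24 at baseline. Mitochondrial removal and limma-trend on the tested genes only were added after seeing the data. In PC3 without TMM, 25 members were 2-fold above the other lines and 2 reached a ratio of 2. With 246063 counts in the shallowest library, 26 of 43 members were at or under the floor in 22Rv1 SEL120-34A.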

Other observations

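Some genes that act on the matrix genes differed between the untreated lines. These genes were chosen after their values were seen, from the lists in which 34 of the 61 tested genes were called between LNCaP DMSO and 22Rv1 DMSO, against 49.0% of all genes tested. YAP1, a coactivator of the TEAD factors, had 23, 13 and 20 counts in LNCaP DMSO and 0, 3 and 1 in 22Rv1 DMSO (adjusted p = 4.60e-07, edgeR), and no count in any treated 22Rv1 library. TEAD2 went the other way, with 9, 0 and 1 counts in LNCaP DMSO and 40, 27 and 49 in 22Rv1 DMSO (adjusted p = 9.25e-09). PC3 DMSO held 11 counts of YAP1 and 151 of TEAD2.

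The collagen-specific chaperone SERPINH1 (HSP47) had 0, 0 and 1 counts in LNCaP DMSO and 17, 25 and 36 in 22Rv1 DMSO (adjusted p = 5.78e-10, edgeR), and PC3 DMSO held 152. The lysyl hydroxylase PLOD2 had 0, 1 and 0 counts in LNCaP DMSO and 14, 11 and 22 in 22Rv1 DMSO (adjusted p = 4.10e-07). SERPINH1 and PLOD2 were at or under the floor in LNCaP DMSO, and COL6A1 was higher there than in 22Rv1. The collagen processing genes went both ways. Of the 9 tested, 3 were lower in LNCaP (SERPINH1, PLOD2 and PLOD3) and 2 were higher. These 2 were P4HA1 (0.94 on the log2 scale, adjusted p = 0.00461) and P4HB (0.39, adjusted p = 0.0251, edgeR). TWIST1, a mesenchymal transcription factor, had 21, 22 and 11 counts in LNCaP DMSO (29.6, 57.6 and 15.4 CPM). In 22Rv1 DMSO it had 4, 6 and 3 counts (7.85, 11.2 and 3.58 CPM), near the floor and at it in replicate 3. The difference was 2.11 ± 0.48 on the log2 scale (adjusted p = 3.30e-04, edgeR). TWIST1 did not pass the test with SEL120-34A in either line.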
